A study of Homo sapiens with 7 samples.

Results

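The comparison described here set the library labelled G13 against the control library in HUES66 cells, a line of human embryonic stem cells. It took 2 of the 7 libraries of the series and covered 7878 of 14294 genes, those with a mean level of at least 5 TPM over the 7 libraries. At the edge of this filter OSBPL11, with a mean of 5.00 TPM, was kept, and SYT13, with 4.999 TPM, was left out. TPM here means reads scaled to the same total in each library, with no term for transcript length. The cells labelled G13 had the genotype RBFOX2 isoform KD, with RBFOX2 id 178145, and the control was labelled WT. The description of both names only piggyBac, a transposon used to insert transgenes. The doxycycline dose was 1 µg/ml in both, and the time point 24 h. The series directed Cas13d, an RNA-guided nuclease that cuts RNA, at single isoforms of RBFOX2, and the labels do not say which isoform the id denotes. Polyadenylated RNA was read as full-length cDNA on a PacBio instrument, so each read shows which exons were joined in 1 molecule. There was 1 library on each side, so no difference has a replicate check and every interval and p-value covers the counting of reads in these libraries, not the conditions. In bulk RNA, fewer cells with a transcript and less of it in each cell cannot be told apart.

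RBFOX2 encodes an RNA-binding protein with a single RNA recognition motif that binds the letters GCAUG. Bound downstream of an alternative exon it usually favours inclusion, and bound upstream it usually favours skipping. The gene has alternative first exons and alternative internal exon edges, so a single locus gives many proteins, and in embryonic stem cells it regulates exons of cytoskeletal, signalling and other splicing genes.

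The libraries held 16801844 reads for the control and 22794339 for G13, and between 17848097 and 26678540 for the other 5. A count of 3 reads, the limit that a count of 0 allows, was worth 0.179 TPM in the control and 0.132 TPM in G13. Markers of pluripotent cells summed to 2693 TPM in the control, the highest of the 7 libraries. They summed to 2035 TPM in G13, the second lowest, above 2024 TPM in G12. Markers of mesoderm, endoderm and trophectoderm summed to 3.10, 1.43 and 2.27 TPM in the control and to 0.56, 0.88 and 1.26 TPM in G13, and no gene of these 3 lists reached the level for comparison. Of the fibroblast markers, THY1, which stem cells also carry, held 918 TPM in the control and 861 TPM in G13, while COL1A1 stood at 16.4 and 1.58 TPM.

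The RBFOX2 exon on which the libraries differed most starts at either of 2 acceptor sites 3 nt apart, and both lie in the coding part of RBFOX2. GENCODE 29 on GRCh38 places the gene at 35738736 to 36028425 of chromosome 22, read from the minus strand. The shorter exon, chr22:35781600-35781743, is called the short form and the longer, chr22:35781600-35781746, the long form. The junctions are shown because the results turn on them. Each line holds the last 30 nt of the preceding exon and then the start of this exon, and capitals mark the 3 nt that the longer form adds.
RBFOX2 short form: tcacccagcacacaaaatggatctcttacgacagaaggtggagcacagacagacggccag
RBFOX2 long form: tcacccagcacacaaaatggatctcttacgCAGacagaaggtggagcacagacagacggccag

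The short form was the main form in the control and the minor form in G13. Of the RBFOX2 reads that show this exon, 68.4% (95% Wilson interval 66.1 to 70.6) had the short form in the control, 1122 of 1641. In G13 it was 22.1% (19.8 to 24.6), 257 of 1162, a difference of -46.3 percentage points. Fisher's exact test between the reads of the 2 libraries gave an adjusted p of 8.69e-134 over the 3 forms compared. The share was 94.8% in G14, 65.2% in G12, 68.3% in G11, 65.4% in G5 and 73.7% in G3. G13 was thus the lowest of the 7 libraries, and the other 6 all lay above 65%.

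In levels, the short form went from 66.8 TPM in the control to 11.3 TPM in G13, which is 16.9% of the control (exact 95% interval 14.7 to 19.4). It stood at 98.0 in G14, 55.4 in G12, 53.6 in G11, 61.9 in G5 and 26.1 TPM in G3. The long form went the other way, from 30.9 TPM in the control, 519 reads, to 39.7 TPM in G13, 905 reads, or 129% of the control (115 to 143). It stood at 5.35 in G14, 29.6 in G12, 24.9 in G11, 32.8 in G5 and 9.30 TPM in G3. G13 thus held the lowest level of the short form and the highest level of the long form among the 7 libraries.

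**Figure D1:**
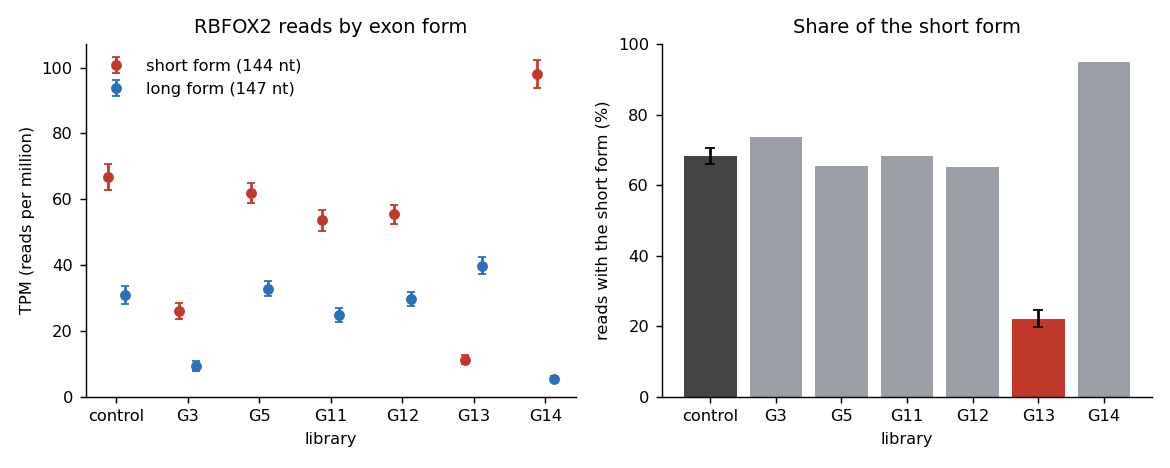
RBFOX2 reads by exon form in the 7 libraries, 1 library a group. Left, TPM of the short form (red) and the long form (blue) with exact 95% Poisson intervals; right, share of reads with the short form, with Wilson intervals for control and G13. The short form is at 11.3 TPM in G13 against 66.8 TPM in the control, and its share is 22.1% against 68.4%.

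The RBFOX2 total changed less than the short form. It was 107 TPM in the control, 1802 reads, and 55.9 TPM in G13, 1275 reads, or 52.2% of the control (48.5 to 56.1), and Fisher's exact test gave p = 3.99e-72. It was 106 in G14, 88.5 in G12, 82.9 in G11, 96.8 in G5 and 42.1 TPM in G3. G13 was thus the second lowest, above G3. On the log2 scale the difference was -0.94, and it was -1.69 where only isoforms with a reference transcript ID were summed. RBFOX1 and RBFOX3, the other members of the family, had 8 and 4 reads in the control and 3 and 0 reads in G13, which is at the limit of detection.

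The isoforms with at least 5% of the RBFOX2 total came next. ENST00000416721.6, with the short form and the proximal first exon, was the most abundant and fell from 472 reads in the control to 131 in G13, 20.5% of the control level (16.7 to 24.9). Its level was 45.2 in G14, 5.75 in G13, 15.6 in G12, 38.6 in G11, 34.9 in G5, 3.31 in G3 and 28.1 TPM in the control. ENST00000449924.6, which pairs the short form with the longer form of a later exon, fell from 235 reads to 77, 24.2% of the control (18.4 to 31.4). The counterpart of the first with the long form, which has a hashed ID in the deposited table and is called hashed isoform 1 here, had 260 reads in the control and 473 in G13, 134% of the control level (115 to 157). The counterpart of ENST00000449924.6, hashed isoform 2, had 120 and 292 reads, 179% (144.5 to 224). Hashed isoform 3, with the short form and the distal first exon, fell from 156 reads to 15, 7.09% of the control (3.87 to 12.1). Sums over isoforms with a reference transcript ID leave out hashed isoforms 1, 2 and 3. The share of each of these 5 isoforms within RBFOX2 differed between the libraries, with an adjusted p of 9.09e-11 or smaller by Fisher's exact test.

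Of the 10 isoforms with the short form and at least 10 reads over both libraries, 10 were below the control, at 2.95% to 26.8% of it. Of the 11 such isoforms with the long form, 8 were above and 3 below, with a median of 134%. ENST00000405409.6, the lowest of the 11, had the long form but lacks a 40-nt exon, and went from 27 reads to 8, 21.8% of the control (8.58 to 49.4). Distal isoforms with the long form, 55 reads in the control and 52 in G13, stood at 69.7% (46.8 to 104), an interval that includes no change. ENST00000695854.1, whose exons are not in GENCODE 29, had 85 and 81 reads.

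**Figure D2:**
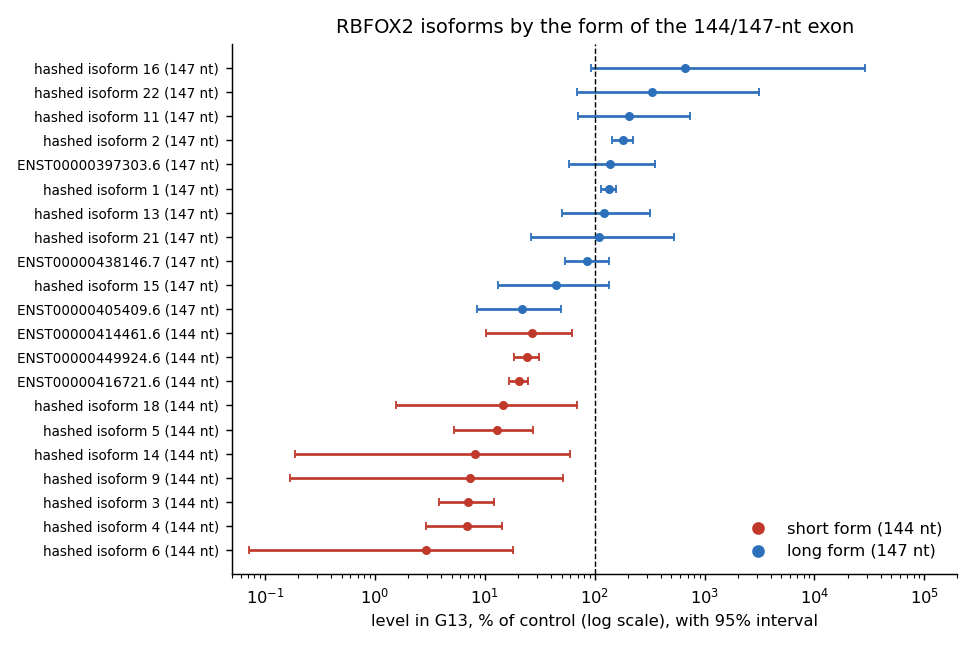
Level of each RBFOX2 isoform in G13 as a percentage of the control, on a log scale, for isoforms with at least 10 reads over both libraries and a known form of the exon. Points are ratios of 1 library to 1 library and lines exact 95% intervals. All 10 isoforms with the short form (red) lie between 2.95% and 26.8%; of the 11 with the long form (blue), 8 lie above 100%.

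The other alternative parts of RBFOX2 moved less. A later exon also has a shorter (chr22:35759888-35760020) and a longer form (chr22:35759888-35760032), and its shorter form had 65.4% of reads in the control and 59.8% in G13 (adjusted p = 0.00289, Fisher's exact test). Among isoforms with the short form the shares were 66.5% and 63.0% (adjusted p = 0.327, Fisher's exact test), and among those with the long form 63.0% and 58.9% (adjusted p = 0.146, the same exact test). The proximal first exon was used by 75.5% of reads in the control and 86.8% in G13 (adjusted p = 2.8e-14, Fisher's exact test), and by 77.3% in G14, 82.9% in G12, 84.3% in G11, 96.3% in G5 and 31.4% in G3. Within the proximal isoforms the share of the short form went from 64.8% to 21.7%, and within the distal ones from 82.5% to 34.2%. The 40-nt exon was included in 91.5% of reads in the control and 96.9% in G13, in 92.4% in G3 and in 95.8% to 97.8% in the other 4. A 93-nt exon of the RNA recognition motif, whose loss removes RNA binding, was included in 98.5% and 98.8% of reads (adjusted p = 0.517, Fisher's exact test).

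Splicing of other genes was read from the same full-length isoforms. An internal exon was measured where at least 50 reads in both libraries spanned it and the exons of at least 80% of the reads of its gene were known, which gave 21256 exons in 5234 genes. Inclusion was at least 10 percentage points higher in G13 than in the control for 89 exons, 0.419% of those measured, and at least 10 points lower for 64 exons, 0.301%. G13 was the highest of the 7 libraries for 41 of the 89 and the lowest for 47 of the 64. These exons were picked by their difference between G13 and the control, so an outermost place is partly set by that choice. With at least 200 reads in both libraries the shares of exons higher and lower were 0.116% and 0.121%. Exon length was a multiple of 3 in 33 of the 64 exons that were lower (51.6%), in 42 of the 89 that were higher (47.2%) and in 1671 of the 3721 alternative exons (44.9%).

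The short coding exons with the largest differences, and the PICALM exon described below, are printed as the transcript reads them, all from GENCODE 29 on GRCh38. The first 4 are among the exons with the lowest inclusion in G13 relative to the control, and in the last, capitals mark GCATG, the DNA letters of the RBFOX motif.
ECT2 93-nt exon, chr3:172755483-172755575, plus strand: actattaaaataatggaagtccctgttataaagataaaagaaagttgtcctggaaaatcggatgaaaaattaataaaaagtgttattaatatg
DIAPH1 27-nt exon, chr5:141588224-141588250, minus strand: actctgaagcggctcatggcagatgag
DIAPH2 33-nt exon, chrX:96735758-96735790, plus strand: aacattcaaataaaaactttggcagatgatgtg
ST7 69-nt exon, chr7:117134124-117134192, plus strand: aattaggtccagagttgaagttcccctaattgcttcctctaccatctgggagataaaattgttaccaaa
PICALM 24-nt exon, chr11:85978070-85978093, minus strand: aatgGCATGcattttccacaatac

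ECT2, a guanine nucleotide exchange factor that acts in cytokinesis and is on the list of genes studied as RBFOX targets, had lower inclusion of its 93-nt exon in G13. In the control 722 reads held the exon and 105 skipped it, 87.3% (84.9 to 89.4), and in G13 the numbers were 875 and 574, 60.4% (57.8 to 62.9). Inclusion was 77.8% in G14, 76.0% in G12, 79.7% in G11, 77.2% in G5 and 82.5% in G3. G13 was the lowest and the control the highest, with the other 5 between 76.0% and 82.5%. The level of ECT2 itself was 55.3 TPM in the control and 68.5 TPM in G13.

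Both diaphanous formins, which nucleate actin filaments, showed the same order. The 27-nt exon of DIAPH1 was included in 81.6% of reads in the control (75.7 to 86.3) and in 48.3% in G13 (41.6 to 55.1), on 201 and 209 reads. The values of the other libraries were 75.6% in G14, 66.2% in G12, 63.3% in G11, 57.0% in G5 and 76.0% in G3. The 33-nt exon of DIAPH2 was included in 90.1% in the control (84.6 to 93.8) and in 67.9% in G13 (62.2 to 73.1), and inclusion was between 77.9% (G11) and 85.5% (G3) in the other 5. In both genes the control was the highest library and G13 the lowest.

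Further exons with lower inclusion in G13 belonged to a kinase, a chromatin remodeller subunit and several other genes. A 165-nt exon of FYN, a Src-family tyrosine kinase, went from 56.0% (46.2 to 65.3) to 36.2% (30.7 to 42.0), with 44.7 to 50% in the other 5 libraries. The 69-nt exon of ST7 went from 46.9% to 25.7%, with 37.0 to 45.7% in the others. A 117-nt exon of INO80E, a subunit of the INO80 chromatin remodeller, went from 72.6% to 53.1%. A 215-nt exon of HYCC1 went from 97.3% (95.3 to 98.4) to 72.1% (69.3 to 74.7), and was at 82.6% in G5 and at 92.8% or above in the other 4. Lower inclusion was also seen for a 79-nt exon of SNX5 (51.8% to 31.8%, and 32.5% in G14) and a 256-nt exon of WDR54 (88.7% to 69.6%). The exons of HYCC1, SNX5 and WDR54 are no multiples of 3, and no annotated transcript has any of them wholly in its coding part.

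Long exons of SON, SGO1 and TNRC6B were also included less. The 5916-nt exon of SON, a nuclear speckle protein, went from 76.0% to 25.7%, with 29.8% in G14, 46.0% in G12, 53.7% in G11, 75.2% in G5 and 84.5% in G3. The 807-nt exon of SGO1, a protector of sister chromatid cohesion, went from 46.1% to 12.6%, with 69.1% in G3 and 12.4% in G14. The 2349-nt exon of TNRC6B, of the RNA silencing complex, went from 94.1% to 74.2%, with 92.7% in G3 and 75.2% in G14. In these 3 genes, as in SNX5, G14 lay close to G13, which was not the case for ECT2 or DIAPH1. For FYN G14, at 44.7%, was the library nearest to G13, at 36.2%. The part of molecule length in the values of SON, SGO1, TNRC6B and SNX5 was not tested.

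Higher inclusion was seen for HNRNPH1 and SEPTIN6 among the 14 genes with the largest differences. A 60-nt exon of HNRNPH1, a splicing factor found with RBFOX proteins in the LASR assembly, went from 34.0% (25.5 to 43.7) to 54.7% (46.4 to 62.8), and a 45-nt exon of SEPTIN6, a GTP-binding filament protein, from 58.6% (52.0 to 64.9) to 78.6% (73.2 to 83.2). For SEPTIN6 the value in G5, 78.0%, was close to that of G13. No annotated transcript has either exon wholly in its coding part.

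**Figure D3:**
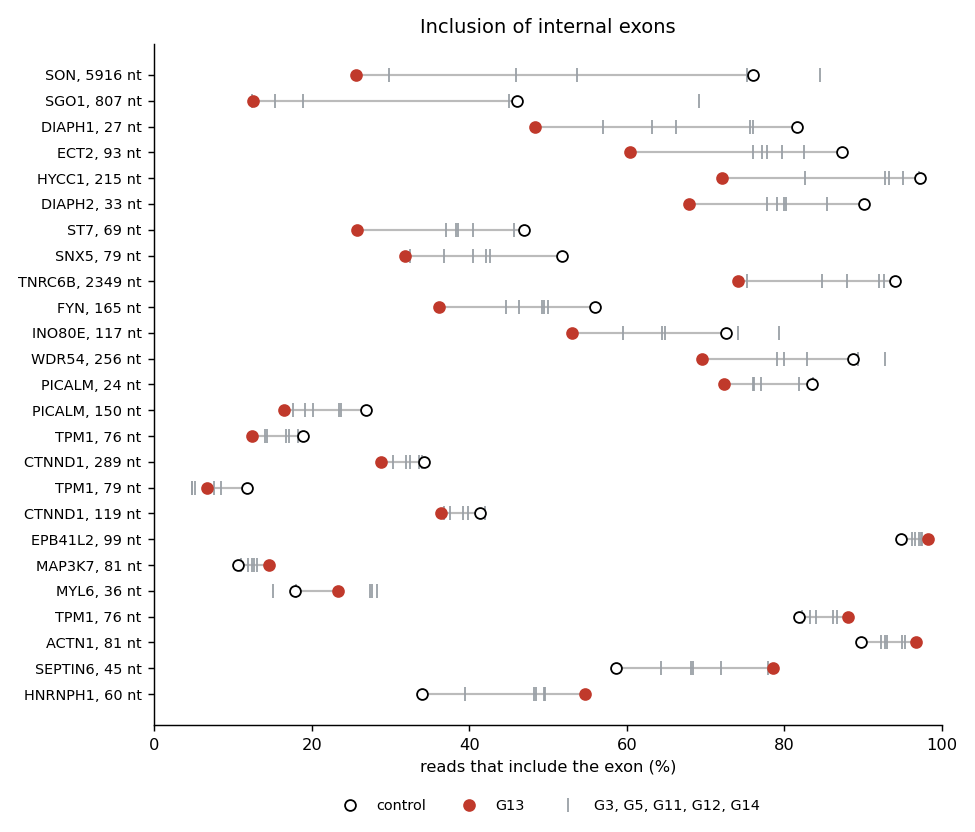
Inclusion of internal exons in percent of reads, for the 14 genes with the largest difference between control (open circles) and G13 (red circles) and for exons of genes studied as RBFOX targets that differ by at least 3 points. Grey ticks are the other 5 libraries, and each point is 1 library. ECT2 went from 87.3% to 60.4% and DIAPH1 from 81.6% to 48.3%, with G13 outside the other 6 libraries in both.

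Of 20 genes studied as RBFOX splicing targets, 13 reached the level for comparison. PICALM, a clathrin assembly protein, had its 24-nt exon in 83.5% of reads in the control (78.4 to 87.5) and in 72.3% in G13 (66.3 to 77.7), the lowest of the 7. On the strand of the transcript GCATG was found in this exon, and in 2 of the 268 annotated internal exons of 24 nt (0.746%). In this exon it also lay on the other strand in an overlapping position, and 3 of the 268 held it on either strand (1.12%). A 150-nt exon of PICALM went from 26.9% to 16.5%. ACTN1, an actin-bundling protein, had its 81-nt exon in 89.8% of reads in the control (88.8 to 90.7) and in 96.7% in G13 (96.1 to 97.2), the highest of the 7. The mutually exclusive 76-nt exons of TPM1, a tropomyosin, went from 81.9% to 88.1% for the upstream exon and from 18.9% to 12.4% for the downstream one, and in both G13 was the outermost library. It was not for a 79-nt exon of TPM1, which went from 11.8% to 6.72% with 4.77% in G5 and in G14, nor for a 36-nt exon of MYL6, a myosin light chain, which went from 17.9% to 23.4% with 28.3% in G14. MAP3K7, a kinase of the TGF-beta and NF-kappa-B pathways, had an 81-nt exon at 10.7% (9.2 to 12.4) and 14.6% (13.1 to 16.2), and a 99-nt exon of EPB41L2 went from 94.8% to 98.2%. GCATG was in neither strand of the ECT2, DIAPH1, DIAPH2, ST7, ACTN1, MAP3K7 or EPB41L2 exons, and the introns beside them were not searched.

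RBFOX2 was also among the 8 genes with the largest difference in whole isoform usage, among genes with at least 300 reads in both libraries. The distance between 2 sets of isoform shares runs from 0, for identical shares, to 1, for sets without a common isoform. It was at least 0.5 for 16 of 7209 genes with at least 100 reads in both libraries (0.222%), with a median of 0.067, and it was 0.48 for RBFOX2. EPRS1, a tRNA synthetase for glutamate and proline, had the largest distance of these, 0.60. Its full-length isoform ENST00000366923.8 had 21.5% of reads in the control and 81.9% in G13, and a hashed isoform with 8 introns in place of 31 had 62.5% and 15.4%. The full-length isoform was at 36.7 in G14, 26.8 in G13, 24.0 in G12, 24.8 in G11, 22.6 in G5, 12.4 in G3 and 5.36 TPM in the control. Every G library was above the control for it. The same held for FEZ2, an axon outgrowth protein, where ENST00000405912.8 went from 24.6% to 57.3% and a hashed isoform with 4 introns from 57.1% to 12.4%. For DDX10, an RNA helicase of ribosome assembly, ENST00000322536.8 went from 7.02% to 51.6%. DKC1, the pseudouridine synthase dyskerin, had ENST00000369550.10 at 15.2% and 62.3%, and GNL3L, NUP43 and CCNL1 completed the set.

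At the level of whole genes the differences ran mostly downward. A log2 ratio of TPM with 0.5 added was at least 1 for 82 genes (1.04% of those compared) and -1 or less for 1154 genes (14.6%), with a median of -0.22 over all 7878. GC content of the transcripts moved with these ratios. In the fifth of genes with the lowest GC content, up to 41.1%, the median was 0.09 and 1.87% were at least 2-fold lower. In the fifth with the highest, from 58.0%, it was -0.88 and 44.7% were at least 2-fold lower. In a group chosen after the values were seen, the 173 genes with at least 60% GC and at least 3000 nt, 149 were at least 2-fold lower, and their median was -1.55 in G14, -1.31 in G12, -0.96 in G11, 0.06 in G5, 0.56 in G3 and -2.41 in G13. Length and GC content together accounted for 41.6% of the variance of the ratios. With a quadratic surface of both subtracted the counts were 294 higher and 377 lower, of 7737 genes. What part of the gene differences stems from the libraries and what part from the cells was not tested.

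**Figure D4:**
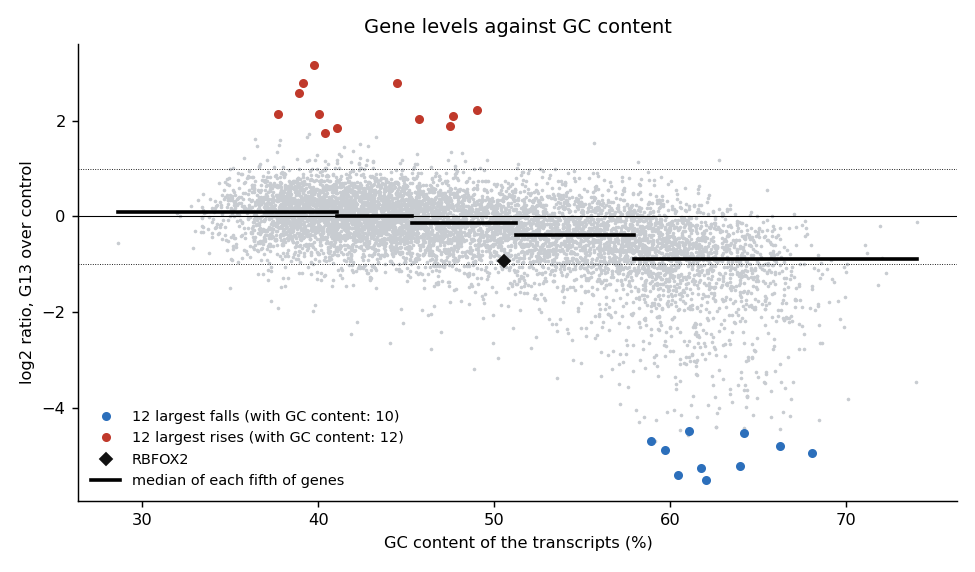
Log2 ratio of G13 over control against the GC content of the transcripts for 7737 genes, 1 grey point a gene. Black bars are the medians of the 5 groups of genes by GC content, from 0.09 to -0.88; red and blue points are the 12 highest and 12 lowest ratios among genes with a mean of at least 10 TPM, and dotted lines mark 2-fold.

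The 12 genes with the lowest ratios had GC contents of 58.9% to 68.1% in the 10 where it was known. FLNA, which crosslinks actin filaments, had 403 reads in the control and 1 in G13. Its level was 0.05 in G14, 0.04 in G13, 0.30 in G12, 0.20 in G11, 17.2 in G5, 56.8 in G3 and 24.0 TPM in the control, so G14 was as low as G13. PRRC2A had 309 reads in the control and 0 in G13, at most 0.885% of the control. RAVER1, a partner of the splicing repressor PTBP1, went from 79.2 to 1.66 TPM, and MAP1S, a microtubule-associated protein, from 110 to 3.11 TPM. CBX2, of Polycomb repressive complex 1, went from 62.3 to 1.65 TPM and POLRMT, the mitochondrial RNA polymerase, from 56.0 to 1.53 TPM. AKT2, a kinase of the insulin pathway, went from 49.9 to 1.46 TPM and SLC7A5, a large neutral amino acid transporter, from 160 to 6.65 TPM. COL18A1, RNF44, AP2A1 and GAA completed the 12. G13 was the lowest of the 7 libraries for all 12, while their summed level was 53.2 in G14, 17.6 in G13, 97.1 in G12, 151 in G11, 642 in G5, 1288 in G3 and 671 TPM in the control.

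The 12 genes with the highest ratios had GC contents of 37.7% to 49.0%. TOPORS, a ubiquitin and SUMO ligase that binds topoisomerase I, went from 45 reads to 641, and stood at 36.0 in G14, 28.1 in G13, 21.7 in G12, 23.0 in G11, 20.4 in G5, 11.7 in G3 and 2.68 TPM in the control. TOP2A, which untangles DNA in mitosis, went from 4.36 to 33.2 TPM and CTR9, of the Paf1 elongation complex, from 1.67 to 14.5 TPM. SMC3 of cohesin went from 6.67 to 42.5 TPM and SMC6 of the SMC5/6 complex from 3.16 to 15.6 TPM. CWC27, of the spliceosome, went from 19.1 to 85.9 TPM. KNOP1, LSG1, IWS1, NAA35 and RBBP8 were also among the 12. The other 5 G libraries were also above the control for these genes, with a summed level of 116 TPM in the control, 335 in G3, 549 in G13 and 657 in G14, and G13 was the highest library for 2 of the 12.

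Against the other 6 libraries, G13 lay above all of them and at least 2-fold above their median for 4 genes (0.0508% of those compared), and below all of them and at least 2-fold below their median for 640 genes (8.12%). With the surface of length and GC content subtracted these counts were 66 and 156, of 7737 genes. The genes highest against the median of the other 6 included PSMC3IP, DENR, DERL3, GAP43 and PPCS. GAP43 and PPCS, at log2 ratios of 0.96 and 0.93 to that median, were below 2-fold and not among the 4. DERL3 was at 24.3 TPM in the control and 27.1 TPM in G13. PSMC3IP, a meiotic recombination cofactor, was at 14.3 in G14, 95.5 in G13, 68.1 in G12, 45.2 in G11, 20.8 in G5, 10.2 in G3 and 82.0 TPM in the control. GAP43, a growth cone protein, was at 22.5 TPM in the control and 45.6 in G13, and PPCS, of coenzyme A synthesis, at 202 and 504 TPM. RAVER1, MAP1S, CBX2, AP2A1, POLRMT and FLNA were the lowest.

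Splicing regulators were next, since RBFOX2 acts in a network of them. None of the partners of RBFOX in the large assembly of splicing regulators (LASR) differed 2-fold, among 8 gene IDs compared with MATR3 listed under 2, and the median of the list was 0.07 beside -0.22 for all genes. It was -0.15 against the median of the other 6 libraries, and 5 of the 8 had a ratio above 0 and 3 below. With median of ratios scaling ILF2 passed 2-fold, at 1.10 on the log2 scale. Of the SR proteins 1 of 11 (9.09%), SRSF7, was at least 2-fold lower, from 1066 to 456 TPM, with 320 to 917 TPM in the other 5 libraries, and the median was -0.20. Of 17 other hnRNP genes none was 2-fold higher or lower, with a median of -0.13, which was 0.03 with that scaling. Of 9 developmental splicing regulators 4 were at least 2-fold lower (44.4%, beside 14.6% of all genes) and none higher, with a median of -0.92. These were ESRP2, an epithelial regulator (15.7 to 3.72 TPM), KHDRBS1, or Sam68 (45.4 to 12.9 TPM), PTBP1 (185 to 67.9 TPM) and CELF1 (44.9 to 21.6 TPM). With length and GC content subtracted ESRP2, PTBP1 and CELF1 stood at -0.62, -0.36 and -0.81, and KHDRBS1 at -1.76. PTBP3 went from -0.92 to -1.09, so that 2 genes of the list were at least 2-fold lower, and the median was -0.36. G13 was the lowest library for ESRP2, PTBP1 and CELF1. KHDRBS1 was lower in G12, at 11.6 TPM, and stood at 18.2 in G11, 30.8 in G5, 42.8 in G14 and 127 TPM in G3. Among the 13 genes studied as RBFOX targets 2 were lower (15.4%) and none higher, with a median of -0.30. They were CLSTN1, a neuronal calsyntenin (18.8 to 0.78 TPM), and EPB41, a membrane skeleton protein (35.7 to 16.2 TPM). Of 12 factors of nonsense-mediated decay, which removes transcripts with early stop codons, 2 were lower (16.7%) and none higher, with a median of -0.41. These factors were SMG5 (48.3 to 3.62 TPM) and UPF3B (5.78 to 0.65 TPM). The shares of lower genes among the targets and the decay factors were both close to the 14.6% of all genes.

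Pluripotency genes were split. Of 14 compared, 3 were at least 2-fold lower (21.4%, beside 14.6% of all genes) and 1 higher, with a median of -0.54. DNMT3B, a de novo DNA methyltransferase, went from 44.3 to 13.4 TPM, NANOG from 10.1 to 3.54 TPM and LIN28A, which blocks let-7 maturation, from 170 to 73.2 TPM. With length and GC content subtracted the median was -0.28, none was 2-fold lower and 1, ZSCAN10, was higher, at 1.39. DNMT3B then stood at -0.91, LIN28A at -0.98 and L1TD1 at 0.84, and NANOG had no such value. NANOG was also below the control in the other 5 G libraries, at 3.51 (G14) to 5.57 TPM (G5). For DNMT3B and LIN28A G13 was the lowest of the 7 libraries. L1TD1 went from 18.2 to 37.2 TPM, and it was between 24.9 and 41.0 TPM in the other 5 G libraries. POU5F1, the core factor OCT4, stood at 916 and 566 TPM, a log2 ratio of -0.69, with 378 to 588 TPM in the other 5 G libraries, and DPPA4 at 745 and 778 TPM. Of 11 p53 targets 4 were lower (36.4%) and none higher, with a median of -0.72. With length and GC content subtracted the median turned to 0.09 and 1 gene was lower. The 4 were PHLDA3, MDM2, BAX and BBC3. MDM2, the ubiquitin ligase of p53, went from 12.2 to 5.17 TPM.

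Of 70 cytosolic ribosomal protein genes, whose transcripts are short, 22 were at least 2-fold lower (31.4%, beside 14.6% of all genes) and none higher, and 67 of 70 had a ratio below 0, with a median of -0.75. The summed level of the list was 15359 TPM in the control, 11014 TPM in G13 and at most 10729 TPM in the other 5 libraries, so the control stood above all the others and G13 came next. Against the median of the other 6 libraries the median of the list turned to 0.16. RPL36 went from 29.6 to 7.05 TPM and RPS2 from 158 to 43.5 TPM. Of 70 respiratory chain subunits 10 were lower (14.3%) and none higher, with a median of -0.43, and of 74 mitochondrial ribosomal protein genes 7 were lower (9.46%) and 1, MRPS30, was higher, with a median of -0.35. These shares are at or below that of all genes. Against the other 6 libraries both medians turned, to 0.33 and 0.29, and the summed levels in G13, 13935 and 13064.5 TPM, were above those of the other 5 G libraries. Of 41 translation factors 5 were lower (12.2%), among them EIF4G1, the scaffold of the cap-binding complex (205 to 43.5 TPM), and none higher, with a median of -0.05, which was 0.11 with median of ratios scaling and 0.04 against the other 6. Among 8 subunits of the chaperonin TRiC, which folds actin and tubulin, 7 had ratios above 0, with a median of 0.27 and none 2-fold higher. Of 23 genes on the list of tRNA synthetases 16 were above 0, with a median of 0.20, while VARS1 was at least 2-fold lower (75.2 to 3.10 TPM). Against the other 6 libraries the medians of these lists turned to -0.09 for the chaperonin and -0.06 for the synthetases.

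Of 38 genes of mitosis 3 were at least 2-fold higher, TOP2A, SMC3 and SMC2 (5.67 to 15.1 TPM), and INCENP and SPC24 were lower, with a median of 0.17. Of 39 genes of DNA replication MCM6, of the replicative helicase, was higher (128 to 259 TPM) and CDT1 (25.01 to 2.20 TPM) and POLD1 (90.9 to 12.8 TPM) were lower, with a median of 0.05, and 18 of the 39 had a ratio below 0. The shares of 2-fold lower genes were 5.26% in mitosis and 5.13% in replication, beside 14.6% of all genes, and against the median of the other 6 libraries both medians turned, to -0.01 and -0.05. Genes at least 2-fold higher made up 1.04% of all genes compared. In the Paf1 complex, CTR9 was higher and RTF1 lower (13.7 to 3.41 TPM), with a median of 0.03 over its 6 genes. Of 6 genes of the interferon and double-stranded RNA response, IFIT1 was 2-fold higher (17.4 to 38.1 TPM), with 17.7 to 43.1 TPM in the other 5 libraries, and none was lower, with a median of 0.34.

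No gene of the 5 lists of metabolism, adhesion and stress below was 2-fold higher, beside 1.04% of all genes. Each had a median below 0, beside -0.22 for all genes. The medians of glycolysis, the stress response and the heat shock genes lay above that of all genes. Of 22 genes of cholesterol synthesis 5 were at least 2-fold lower (22.7%, beside 14.6% of all genes), among them SREBF2, the transcription factor of the pathway (78.6 to 4.32 TPM), and LSS (92.7 to 23.1 TPM), with a median of -0.24. Of 19 glycolytic genes PFKL, HK2 and GAPDH were lower (15.8%), with a median of -0.20, both close to the values of all genes. Of 26 genes of epithelial adhesion and the cytoskeleton 7 were lower (26.9%), among them FLNA, MYH9, the non-muscle myosin heavy chain (25.7 to 2.41 TPM), and VCL, or vinculin (42.0 to 14.4 TPM), with a median of -0.39. Of 14 genes of the integrated stress and unfolded protein response CALR and PPP1R15A were lower (14.3%), with a median of -0.12. Of 12 heat shock genes 1 (8.33%), HSP90AA1, was lower (67.1 to 27.3 TPM), with a median of -0.17. With length and GC content subtracted the medians turned to 0.10 for cholesterol synthesis, 0.04 for glycolysis and 0.15 for the stress response, and the last was also 0.03 with median of ratios scaling. For adhesion and the cytoskeleton the median with both subtracted was -0.0006, with 3 genes at least 2-fold lower and 1 higher.

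The largest lists by number differed in GC content. Of 239 ZNF zinc finger genes, whose transcripts had a median GC content of 43.3%, 21 were at least 2-fold lower (8.79%, beside 14.6% of all genes) and 1, ZNF613, was higher, with a median of -0.07. Of 132 solute carrier genes, at a median of 51.6% GC, 28 were lower (21.2%) and none higher, with a median of -0.36. With length and GC content subtracted the medians of these lists were -0.01 and -0.01. Proteasome subunits had a median of -0.01 and nucleoporins of -0.07, with 1 gene lower in each, PSMB5 and NUP98. With median of ratios scaling the medians of the ZNF genes, proteasome subunits and nucleoporins turned to 0.08, 0.15 and 0.09, and that of the proteasome was 0.29 against the other 6 libraries. Of 10 chromatin genes EHMT1 and DNMT1 were lower (20%), with a median of -0.16, or 0.00 with that scaling. The 2 neuroectoderm markers compared had a median of -0.36, which turned to 0.22 with length and GC content subtracted. The transcripts of the 3 compared fibroblast markers had a median ratio of -1.92, which rests on COL1A1, COL1A2 and THY1. The medians of all lists beside the median of all genes are plotted for those with at least 6 genes.

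**Figure D5:**
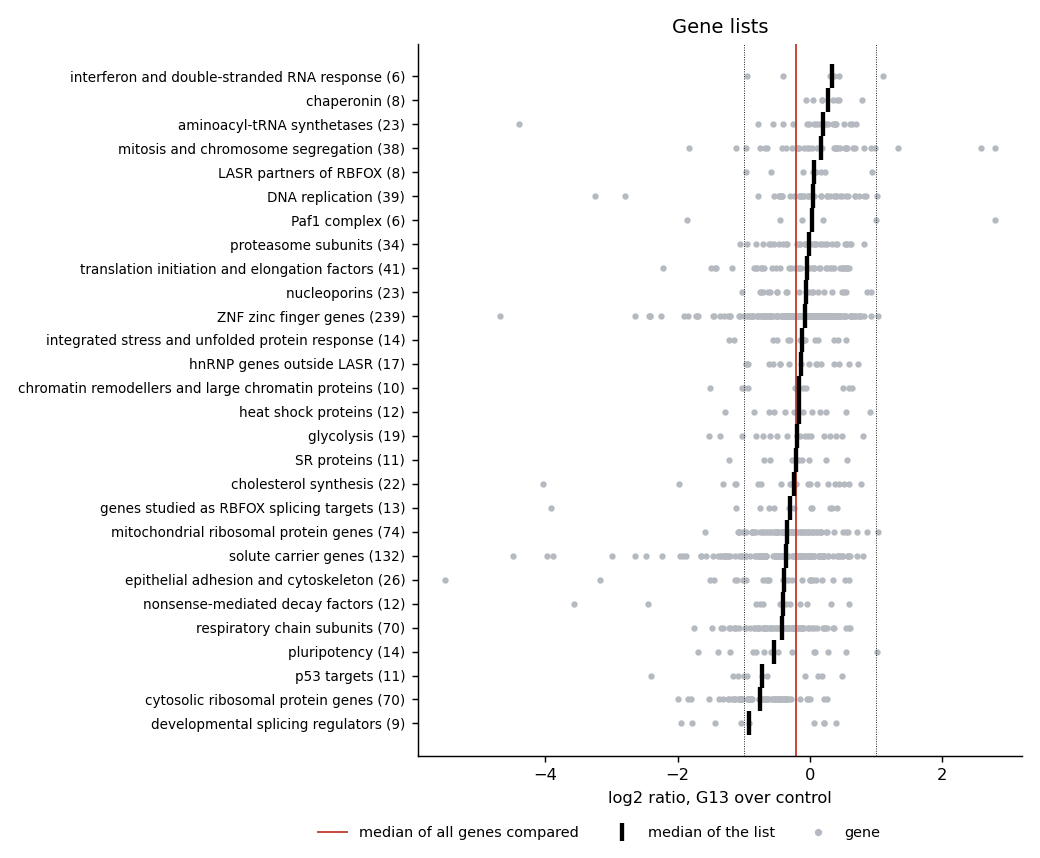
Log2 ratio of G13 over control by gene list, 1 point a gene, with the number of genes compared in brackets and the median as a black bar. The red line is the median of all genes, -0.22, and dotted lines mark 2-fold; cytosolic ribosomal protein genes have a median of -0.75 and the chaperonin of 0.27.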

How the data were processed

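Polyadenylated RNA of HUES66 cells was read by PacBio MAS-Seq, 1 library a group. The deposited table, per the file headers, holds read counts and TPM values of 386982 isoforms in 7 libraries, and TPM in it equals the count divided by the reads of the library, scaled to one total. Per the submitters' processing notes minimap2 2.17 and GRCh38 (hg38) were used. Every listed isoform had at least 1 control read, so isoforms seen only in G13 did not enter; the listed reads were 98.6% of the G13 library. An NA was taken as 0, isoforms were summed by Ensembl gene, and the log2 ratio used a pseudocount of 0.5 TPM. A gene was called at 2-fold, with no test across genes.

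Isoforms with a hashed ID were matched to exon chains of GENCODE 29 through the hash, a step chosen after seeing the data, and exons were known for 94.3% of control and 95.5% of G13 reads in 7209 genes. The short and long forms of the RBFOX2 exon were 144 and 147 nt, those of the later exon 133 and 145 nt. RBFOX2 reads were compared by Fisher's exact test, two-sided, with Benjamini-Hochberg adjustment. Named genes were RBFOX2 and its isoforms with at least 5% of its reads, the 12 highest and 12 lowest ratios at a mean of at least 10 TPM, the 6 highest and 6 lowest against the other libraries, 8 genes by isoform usage, and members of 34 lists past 2-fold or near the list's median, up to 4 in each direction and 3 near the median. The 14 internal exons with the largest difference at 100 or more reads in both libraries, and exons of RBFOX targets, were added after seeing the data. POU5F1 and DPPA4 were named for their known roles, and ILF2 after its values were seen. Some results that fall under this rule are not reported here. The members and lists were chosen with earlier results of these data known. The scripts were tested on simulated data. Python 3.11.15, pandas 2.3.3, numpy 2.4.6, scipy 1.17.1 and matplotlib 3.10.9 were used.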

Additional observations from a re-analysis of the deposited data

How the results depend on the processing

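No paired analysis was possible because each group had 1 library. The log2 ratio of RBFOX2 was -0.78 with median of ratios scaling, which raised all ratios by 0.16, -0.72 against the median of the other 6 libraries and -1.69 from isoforms with a reference ID. Of 7878 genes, 170 were at least 2-fold higher with that scaling, 4 against the median of the other 6 and 142 from reference isoforms. With the surface of length and GC content subtracted the count was 294 of 7737. Genes at least 2-fold lower numbered 661 of 7878 against the median of the other 6 and 377 of 7737 with the surface. With no filter they numbered 2397 of 14294, and in the smaller set with a mean of at least 20 TPM 469. Genes above the other 6 libraries numbered 1 at 20 TPM, 11 with the scaling and 66 with the surface, and those below 250 at 20 TPM and 156 with the surface. An isoform usage distance of at least 0.5 was reached by 2 of 6743 genes from isoforms of at least 1 TPM. From reference isoforms it was reached by 1 of 6360, and at 300 reads or more by 3 of 5244. The other settings in this paragraph were added after seeing the data. The median of the highest GC group minus that of the lowest was -0.43 against the median of the other 6. Exons 10 points higher numbered 49 of 20489 (0.239%) at 100 reads and 21 of 18170 (0.116%) at 200 reads. Exons 10 points lower numbered 125 of 24642 (0.507%) with no minimum share of known reads and 22 of 18170 (0.121%) at 200 reads. The difference in the shorter form of the later exon was -3.42 points within the short form and -4.11 points within the long form. Against the median of the other 6, BAX (0.046), GAPDH (0.014), L1TD1 (-0.079) and PSMB5 (0.17) changed sign, and with the surface BBC3 (0.62), DNMT1 (0.17) and PFKL (0.041) did. The cause of these changes was not tested. The difference in the share of the short form kept its sign in every alternative run, between -48.4 points from distal isoforms and -15.0 points from reference isoforms. The reference isoforms leave out hashed isoforms 1 and 2, with the long form, and 3, with the short form.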
